A study of Mus musculus with 8 samples.

Results

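Lymphatic endothelial nuclei were picked out of single-nucleus RNA counts from mouse visceral white adipose tissue by 5 marker genes, Prox1, Mmrn1, Reln, Flt4 and Ccl21a. A barcode, the tag of one droplet, was first required to hold at least 1000 unique molecular identifiers (UMIs, counted RNA molecules), 300 or more genes and no more than 5% of its UMIs from mitochondrial genes. It was called lymphatic when at least 2 of the 5 markers were detected and their summed UMIs exceeded the sum of Plin1, Plin4 and Cidec (adipocytes), of Pdgfra, Dcn and Col3a1 (progenitors) and of Adgre1, Csf1r and Mertk (macrophages). This kept 346 of 77987 barcodes. The tissue came from 8 mice in 4 groups of 2, each mouse giving 1 library. All mice carried an insertion at one allele of the p21 locus, so that the inserted gene is driven by the p21 promoter, and no group had both p21 alleles intact. The genotype p21+/mCherry, with the red fluorescent protein mCherry, was fed a standard diet (mCherry SD, mice rep144 and rep146) or a high-fat diet (mCherry HFD, mice rep128 and rep129). The other genotypes were fed the high-fat diet only, and were p21+/mCherry-Tert (Tert HFD, mice rep134 and rep136) and p21+/mCherry-TertCi (TertCi HFD, mice rep138 and rep140). The enzyme telomerase takes its catalytic subunit from the gene Tert. The mice are called here by the replicate names of the labels. The labels do not say how TertCi differs from Tert. The series' design text speaks of the stromal vascular fraction and of p21+/- mice instead, and the sample labels were followed here.

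Lymphatic endothelium lines the blind-ended capillaries and collecting vessels that return fluid, lipid particles and immune cells from tissue to the blood. Its cells are set apart from blood endothelium by the transcription factor Prox1, and they respond to the growth factor VEGF-C through Flt4, the receptor VEGFR-3. Reln (reelin) and Mmrn1 (multimerin 1) are secreted glycoproteins of these cells, and Ccl21a is a chemokine that draws dendritic cells carrying the receptor CCR7 into lymphatic vessels. In adipose tissue the lymphatics run beside fat lobules and carry lymph to the local lymph nodes.

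Libraries held 23378488 to 139749876 UMIs, and lymphatic nuclei accounted for 6857 to 846630 of them. The number of lymphatic nuclei was 16 and 21 in mCherry SD, 123 and 17 in mCherry HFD, 89 and 3 in Tert HFD, and 56 and 21 in TertCi HFD, in the order of the mouse numbers above. The median lymphatic nucleus had 1939 and 1544 UMIs in mCherry SD, 3946 and 2215 in mCherry HFD, 2277 and 2015 in Tert HFD, and 2411.5 and 2308 in TertCi HFD. Mouse rep128 thus gave the most and the deepest nuclei. Of its 123, 37 were among the nuclei with the highest doublet scores, a set of 3871 of all its 21996 nuclei. Mouse rep136 had fewer than the 10 nuclei required for gene tests, so every Tert test below rests on mouse rep134 alone and assumes that it varies like the other groups. Cell barcodes seen in more than 1 library numbered 673, none of them lymphatic in more than 1 library. The targeted genes gave no check of the labels in these nuclei. Over all of them Cdkn1a, which encodes p21, had 8 UMIs, Tert had 2, neither in a Tert HFD library, and mCherry had 0 of 1608586 UMIs, which allows a level of up to 1.86 CPM (UMIs per 1000000 UMIs of those nuclei).

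The values of the 5 markers chose the nuclei and are given as a description. Of the members, 54 carried 2 markers, 94 carried 3, 117 carried 4 and 81 carried all 5. Summed over the lymphatic nuclei of a library and scaled to 1000000 UMIs, Reln was at 1605 and 1611 CPM in mCherry SD, 1960 and 2105 in mCherry HFD, 2458 and 3063 in Tert HFD, and 2133 and 1690 in TertCi HFD. Prox1 was at 366 and 520 CPM in mCherry SD, 695 and 629 in mCherry HFD, 625 and 145.8 in Tert HFD, and 569 and 627 in TertCi HFD, where the value of 145.8 is 1 UMI in the 3 nuclei of mouse rep136. Mmrn1 was at 620 and 450 CPM in mCherry SD, 847 and 560 in mCherry HFD, 968 and 1604 in Tert HFD, and 989 and 781 in TertCi HFD. The 5 markers together reached 3098 to 5542 CPM in lymphatic nuclei. They reached 29.9 to 47.7 CPM in blood endothelial nuclei and at most 63.0 CPM in free RNA, the RNA of near-empty droplets (barcodes of 10 to 100 UMIs). At the edge of the rule, 251 further barcodes held at least 2 markers but were blocked by another lineage's sum, 14 of them at a tie, and 18 members lay just 1 UMI above the next sum. Another 2092 barcodes held a single marker.

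**Figure D1:**
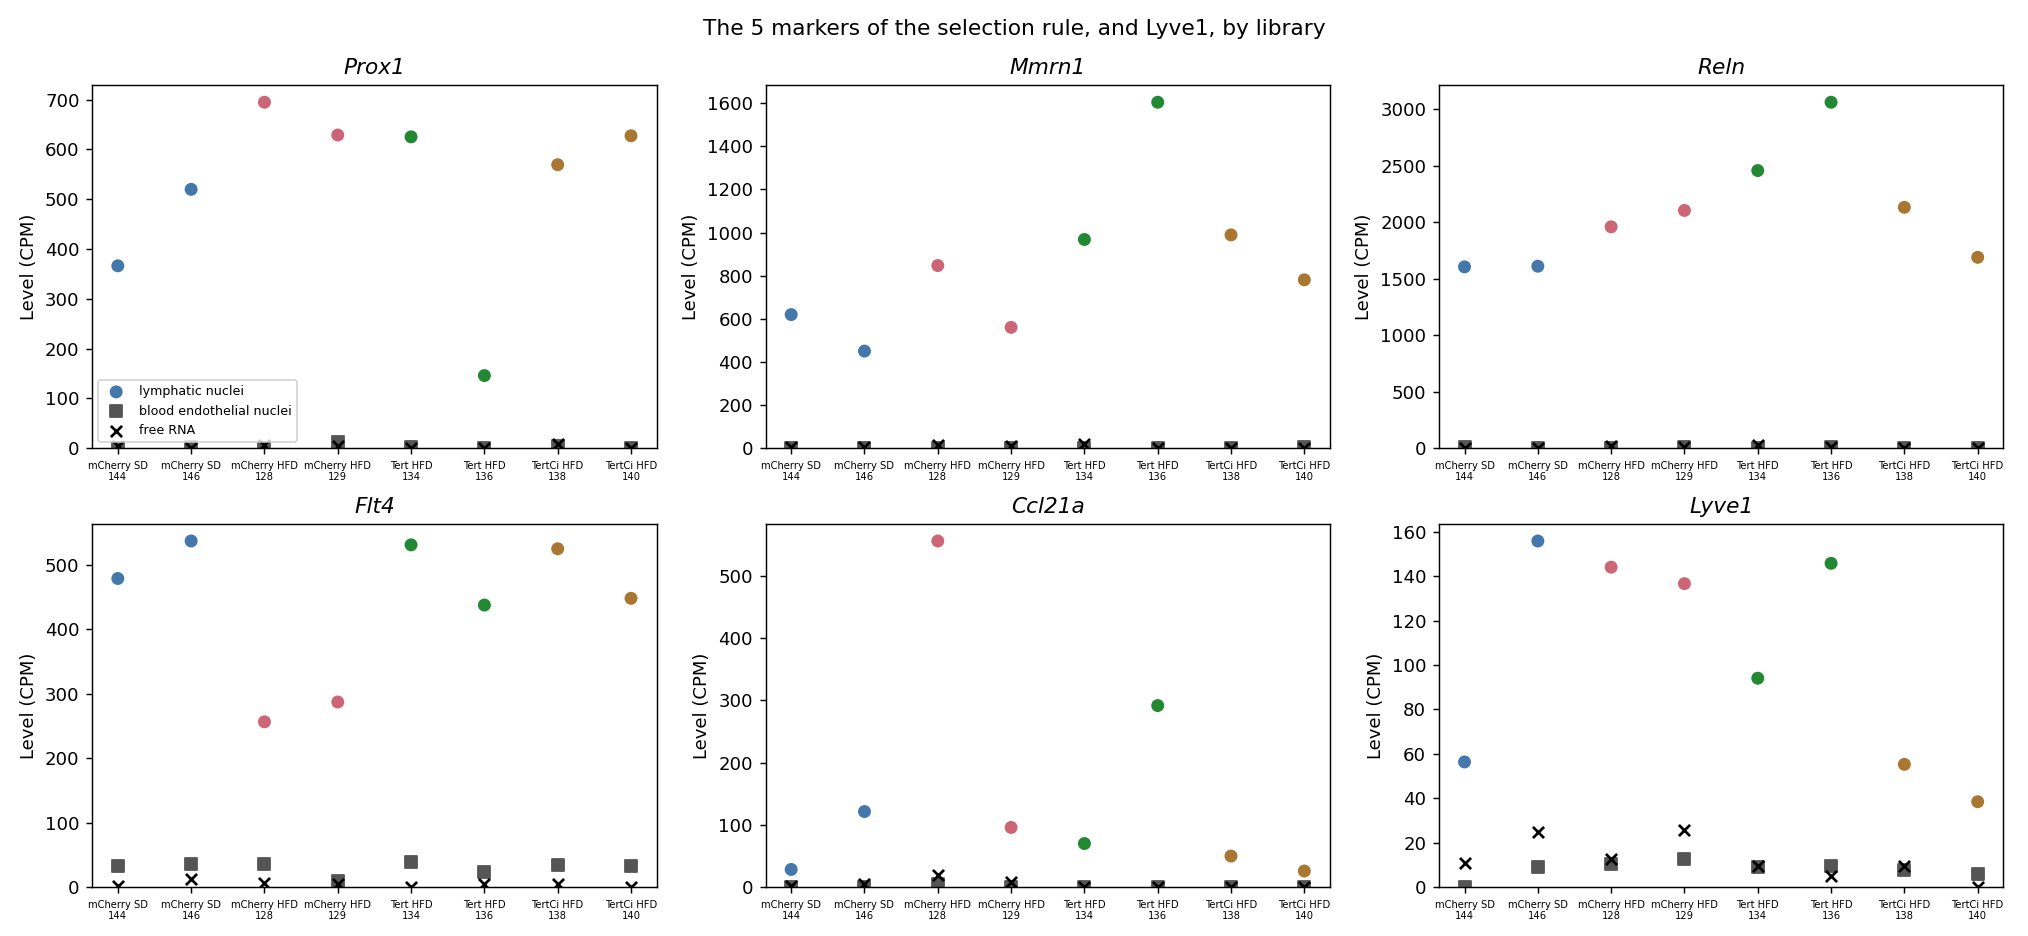
Level of the 5 markers of the rule and of Lyve1 in each library, in CPM on a linear axis, for lymphatic nuclei (circles coloured by group), blood endothelial nuclei (grey squares) and free RNA (crosses). In each library the lymphatic value lies above the others. Mouse rep128 stands apart at 556 CPM of Ccl21a, and both mCherry HFD mice are lowest for Flt4 at 256 and 287 CPM.

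The label was set beside genes that the rule did not use. These lists were chosen with earlier results of these data known, so their sums are a description and no independent check. A list of 21 other lymphatic genes, among them Lyve1, Nrp2, Sema3d and Piezo2, summed to 4281 to 6302 CPM in the lymphatic nuclei of the libraries, against 923 to 1718 CPM in blood endothelial nuclei and 679 to 1378 CPM in free RNA. A list of 19 genes shared by all endothelium, among them Pecam1, Cdh5 and Tie1, summed to 3759 to 6915 CPM, against 785 to 2382 CPM in free RNA. Some genes that define lymphocytes and epithelium were at or near 0. Over all lymphatic nuclei Cd3e of T cells, Ncr1 of NK cells and Epcam of epithelium had 0 UMIs, and Ms4a1 of B cells had 1. Other genes of the lymphocyte list were detected. Bank1 and Ebf1 had counts enough to be tested between groups and against blood endothelial nuclei, and Cd247 only against the latter. Against blood endothelial nuclei the log2 differences of Bank1, Ebf1 and Cd247 were 0.58 ± 0.19, -0.66 ± 0.15 and -3.29 ± 0.31 (standard error). Bank1 was at -2.08 ± 0.55 with diet. Against mCherry HFD, Ebf1 was at 1.26 ± 0.34 in Tert HFD and 1.27 ± 0.30 in TertCi HFD. Of 8 epithelial genes, 8 were at 0 in 6 of the 8 libraries. Adipocyte, progenitor and macrophage RNA was present. Leaving out the genes of the rule, 9 adipocyte genes amounted to 21.9 to 86.3% of their summed level in free RNA of the same library, 9 progenitor genes to 58.3 to 106%, and 9 macrophage genes to 49.1 to 141%. Mural cell genes (10 of them) amounted to 24.1 to 402%, with 755 CPM in mouse rep140 against 77.4 to 292 CPM in the other libraries. Mesothelial genes (9 of them) amounted to 26.7 to 280% and were above free RNA in mice rep138 (354 CPM), rep136 (145.8 CPM, 157%) and rep128 (190 CPM, 116%). Gpm6a, also on the mesothelial list and not in the rule, was left out of this sum. It was higher in lymphatic than in blood endothelial nuclei, by 2.68 ± 0.19 on the log2 scale. The adipocyte and macrophage genes differed between the diet groups in free RNA as well. The 9 adipocyte genes were at 14386 and 13273 CPM in free RNA of mCherry SD and 3220 and 3643 CPM in mCherry HFD, and the 9 macrophage genes at 1722 and 1740 CPM against 4714 and 5326 CPM.

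Lymphatic nuclei were a small share of all nuclei, and the test over the 4 groups turned on the Tert HFD mice. Of all nuclei they made up 0.251 and 0.215% in mCherry SD, 0.559 and 0.375% in mCherry HFD, 0.674 and 0.0928% in Tert HFD, and 0.408 and 0.409% in TertCi HFD. The 2 Tert HFD mice held the highest and the lowest value. With an exact permutation test of the F statistic of the log2 shares, p was 0.79 (adjusted over 2 tests 0.79), where 0.0095 is the smallest p this design allows. The F statistic was 0.454 with all 8 libraries, 22.1 without mouse rep134 and 9.64 without mouse rep136. Either choice leaves 1 mouse in Tert HFD, so that the spread comes from the other groups. Without mouse rep134 that group is the 3 lymphatic nuclei of mouse rep136. Exact 95% binomial intervals, which cover counting error only, ran from 0.542 to 0.829% in mouse rep134 and from 0.0191 to 0.271% in mouse rep136. The number of adipocyte and macrophage nuclei enters this denominator, and fewer lymphatic nuclei cannot be told apart from more nuclei of other types.

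As a share of all endothelial nuclei, lymphatic nuclei made up 17.4 and 6.80% in mCherry SD, 14.2 and 17.5% in mCherry HFD, 7.73 and 3.19% in Tert HFD, and 5.01 and 6.34% in TertCi HFD. Blood endothelial nuclei were those with at least 2 of Flt1, Cyyr1, Emcn, Btnl9 and Gpihbp1 under the same kind of rule, 3709 in all. On the high-fat diet both mCherry mice lay above all 4 mice with Tert or TertCi, with means of 15.9% ± 2.33 (SD, n = 2) against 5.46% ± 3.21 and 5.68% ± 0.941. The standard-diet mouse rep146 lay among the latter. The exact permutation test over the 4 groups gave p = 0.229 (adjusted 0.457) and did not pass the threshold.

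**Figure D2:**
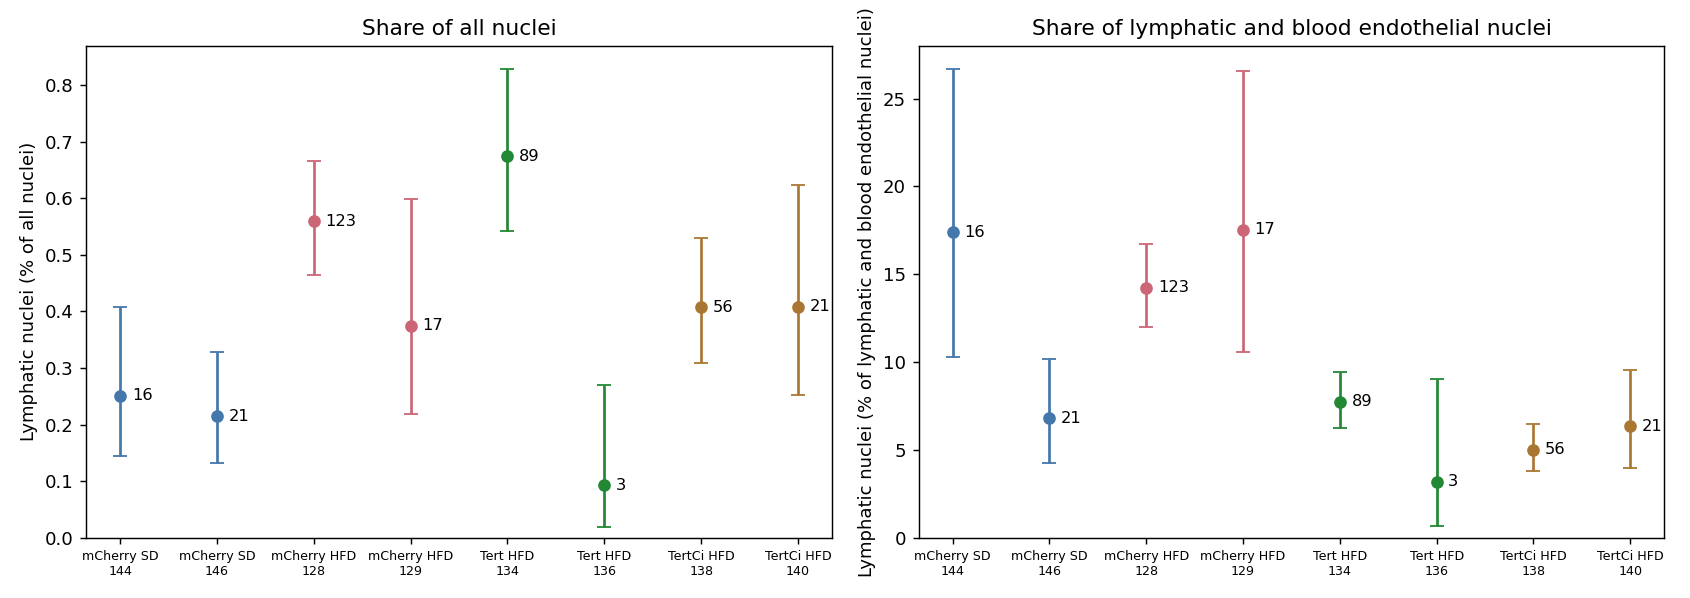
Lymphatic nuclei as a percentage of all nuclei (left) and of lymphatic plus blood endothelial nuclei (right), one point per library coloured by group, with exact 95% binomial intervals and the number of lymphatic nuclei beside each point. The groups overlap on the left, and on the right both mCherry HFD mice, at 14.2 and 17.5%, lie above the 4 mice with Tert or TertCi, whose highest value is 7.73%.

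Lymphatic nuclei were then set beside the blood endothelial nuclei of the same 7 libraries, those with 10 or more of each, to describe which other endothelial genes go with the markers. Both classes were chosen by genes of these same nuclei, so the counts describe the chosen classes and lend no support to the label. Of 4747 genes outside both rules, 22.2% passed edgeR's quasi-likelihood test with library as a block (Benjamini-Hochberg adjusted p under 0.05): 471 were higher in lymphatic nuclei (9.92%) and 583 lower (12.3%). Of the 21 lymphatic genes outside the rule, 15 were tested, 13 were higher and 1 was lower, with a median log2 difference of 1.96 beside -0.01 over all genes tested.

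The genes of this list with the highest differences were Pard6g, which encodes a cell polarity protein, at 308 ± 99.9 CPM (SD, n = 7 libraries) against 3.07 ± 2.12 CPM, and the secreted semaphorins Sema3d, at 384 ± 68.9 against 13.7 ± 7.94 CPM, and Sema3a, at 444 ± 173 against 23.02 ± 8.31 CPM. Piezo2, a mechanically gated ion channel, was at 532 ± 197 against 27.1 ± 11.2 CPM. Lyve1, the hyaluronan receptor of lymphatic capillaries, was at 97.2 ± 48.5 against 7.86 ± 4.04 CPM. Nrp2, a co-receptor for VEGF-C, differed far less, with 471 ± 88.7 against 330 ± 58.9 CPM. The one member that was lower was Gja1, the gap junction gene of connexin 43, at 85.8 ± 33.9 against 128.3 ± 44.99 CPM.

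Among all genes, those with the largest log2 differences towards lymphatic nuclei were Apba2 at 8.25 ± 0.27 (log2 difference ± standard error), an adaptor of amyloid precursor protein, Sh3gl3 at 7.37 ± 0.31, an endophilin, and Pard6g at 6.76 ± 0.24. They were followed by Kif26b, Fxyd6, Fgf12, Il7, Sema3d, Reep1, Tc2n, Piezo2, Sema3a, Adgrg3, Col23a1 and Wipf3, down to 3.93 ± 0.28. No gene among these 15 owed more than 6.84% of its lymphatic UMIs to 1 nucleus. Il7, the cytokine that sustains lymphocytes, was at 152 ± 67.2 CPM in lymphatic and 5.05 ± 4.92 CPM in blood endothelial nuclei. Apba2 was found in 194 of the 343 lymphatic nuclei of the 7 libraries. Towards blood endothelium the largest differences were those of Sema7a at -5.63 ± 0.46, Samd12 at -5.00 ± 0.24, Sema3g at -4.86 ± 0.38, Mecom at -4.79 ± 0.22, Kcnc2 at -4.57 ± 0.23 and Dach1 at -4.46 ± 0.15. Mecom and Dach1 are transcription factors of arterial and capillary endothelium, and Car4, at -4.46 ± 0.42, is a carbonic anhydrase of capillaries.

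Genes of the VEGF-C and TIE pathway were divided, where 9.92% of all genes tested were higher in lymphatic nuclei and 12.3% lower. Of 13 tested, 5 were higher in lymphatic nuclei (Nrp2, Ptpn14, Elk3, Ccbe1 and Svep1) and 5 lower, among them Tek, Tie1, Vegfc and Nrp1. Ccbe1, which promotes the maturation of VEGF-C, was at 133 ± 46.9 against 75.6 ± 69.6 CPM, and Vegfc itself at 84.6 ± 52.5 against 250 ± 99.1 CPM. Nrp1, the co-receptor for VEGF-A, was at 361 ± 71.9 against 1071 ± 168 CPM, and Tek, the angiopoietin receptor TIE2, at 119 ± 50.5 against 329 ± 70.7 CPM. Kdr, the receptor VEGFR-2, had a log2 difference of -0.30 ± 0.15, which did not pass the test. The 9 progenitor genes outside the rule summed to more in lymphatic than in blood endothelial nuclei of each library. They were at 2754 against 2606 CPM in mouse rep146 and 2296 against 1089 CPM in mouse rep129, for example. The part of progenitor RNA in the differences between these classes was not tested.

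Among endothelial transcription factors, 4 of 15 tested were higher and 7 lower, beside 9.92 and 12.3% of all genes. Foxp2 and Nfatc1, both known from lymphatic collecting vessels and valves, were at 624 ± 161 against 58.2 ± 54.5 CPM and 149 ± 80.3 against 72.9 ± 17.95 CPM. Maf, at 472 ± 71.9 against 128.9 ± 26.8 CPM, and Nr2f2, the partner of Prox1 known as COUP-TFII, at 195 ± 48.5 against 59.3 ± 34.7 CPM, were higher too. Meox2, Epas1, Klf2, Fli1, Erg, Tcf4 and Ets1 were lower, Meox2 with 23.9 ± 20.1 against 179 ± 46.1 CPM.

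Of the junction genes, 11 of 15 tested were lower and 1, the polarity gene Pard3, was higher, beside 12.3 and 9.92% of all genes. Cdh5, which encodes VE-cadherin, was at 80.3 ± 20.4 against 318 ± 40.1 CPM, Jam2 at 13.99 ± 10.2 against 205 ± 32.96 CPM and Esam at 9.35 ± 10.0 against 99.2 ± 29.95 CPM. Of the genes common to endothelium, 15 of 18 tested were lower and 1, Calcrl, the receptor of adrenomedullin, was higher. Pecam1 was at 244 ± 95.6 against 692 ± 125 CPM. Of the 8 tested blood endothelial genes outside the rules, 7 were lower and none was higher. CPM are relative to all RNA of a class, and the part of RNA from other cells in these differences was not tested.

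Guidance genes were split, with 5 of 20 tested higher (Nrp2, Unc5b, Ntn1, Sema3d and Sema3a) and 6 lower (Epha4, Plxna2, Sema6d, Plxnd1, Nrp1 and Robo4). Ntn1, the guidance cue netrin 1, was at 680 ± 183 against 75.3 ± 28.8 CPM. In the matrix and adhesion list 5 of 16 tested were higher and 7 lower. Both lists stand beside 9.92% of all genes higher and 12.3% lower. Lama4, a laminin chain, was at 989 ± 235 against 353 ± 82.2 CPM, and Itga9, an integrin needed for lymphatic valves, at 276 ± 74.0 against 131 ± 18.3 CPM. The basement membrane genes Col4a1, Col4a2 and Hspg2 were lower.

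For immune cell traffic 5 of 11 tested genes were higher (Spns2, Stab1, Mrc1, Il7 and Lyve1) and 3 lower (Cd200, S1pr1 and Cxcl12). Spns2, the exporter of sphingosine 1-phosphate, was at 68.2 ± 52.4 against 37.7 ± 9.44 CPM, higher in 4 of the 7 libraries, and its receptor gene S1pr1 at 41.5 ± 17.8 against 99.1 ± 49.5 CPM. Mrc1, Stab1 and Lyve1 are expressed by tissue macrophages as well. For lipid handling 2 of 18 tested genes were higher, near the 9.92% of all genes, and 6 were lower, beside 12.3% of all genes. Cd36, a fatty acid transporter, was at 869 ± 455 against 2803 ± 627 CPM, Fabp4 at 373 ± 180 against 1582 ± 799 CPM, and Scarb1, a receptor for high-density lipoprotein, at 53.5 ± 18.7 against 346 ± 86.7 CPM. Cd36 and Fabp4 in lymphatic nuclei lay below their free RNA in 6 and 7 of these 7 libraries. Antigen presentation genes H2-K1, H2-D1, B2m, Gbp7 and Nlrc5 were lower, 5 of 10 tested, and none was higher.

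**Figure D3:**
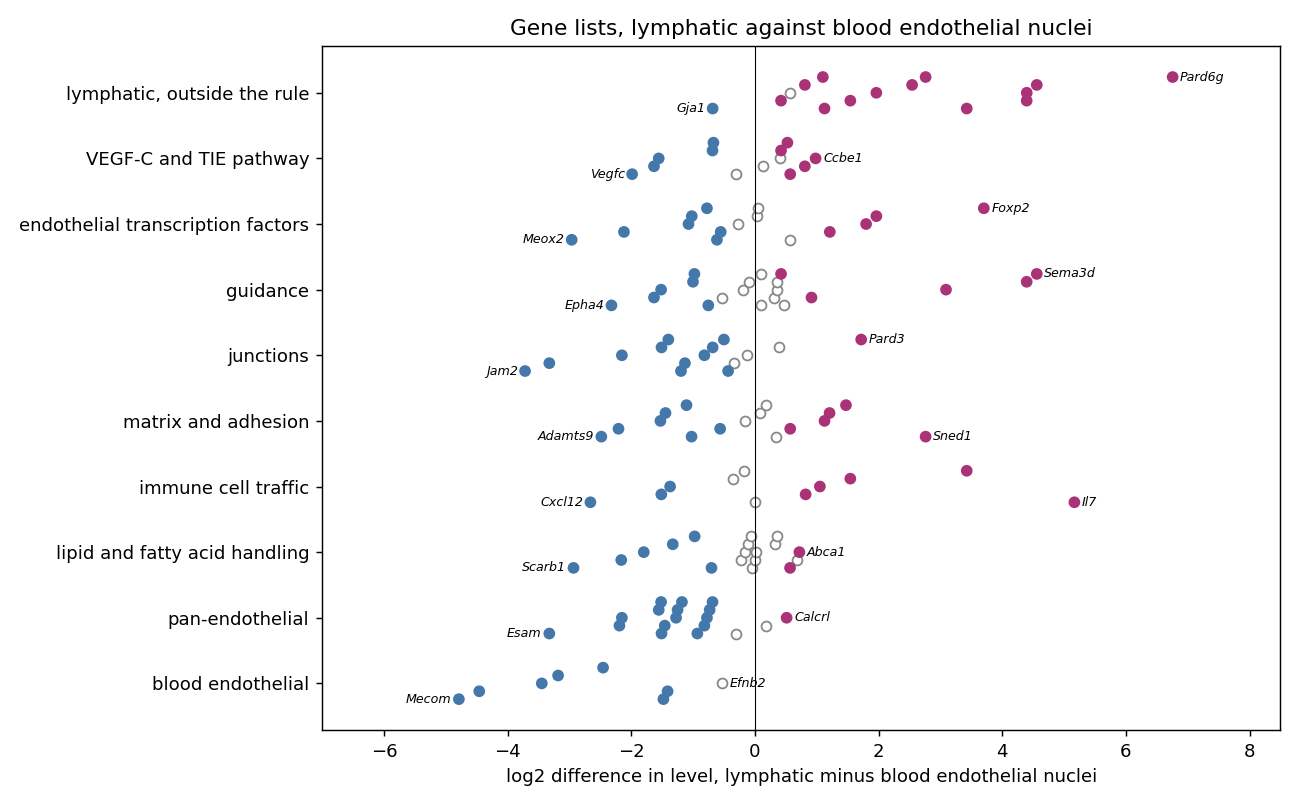
Log2 difference in level between lymphatic and blood endothelial nuclei for the tested members of 10 gene lists, genes of both rules left out; filled points passed the adjusted threshold (purple higher, blue lower in lymphatic nuclei) and open points did not. The outermost genes of each list are named, with Pard6g at 6.76 and Mecom at -4.79.

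Among the markers themselves, Ccl21a and Flt4 varied most clearly between groups. To test a marker without circularity, nuclei were chosen again by the other 4 markers, and the marker left out was tested in them. Ccl21a was then at 28.2 and 109 CPM in mCherry SD (1 and 6 UMIs), 486 and 95.7 CPM in mCherry HFD (386 and 7 UMIs), 69.8 and 250 CPM in Tert HFD (23 and 1 UMIs), and 49.7 and 25.6 CPM in TertCi HFD (9 and 2 UMIs). The diet groups overlapped, and mouse rep128 alone was far above the others. In edgeR's quasi-likelihood test over the 2900 genes of that fit, Ccl21a was lower in TertCi HFD than in mCherry HFD by a log2 difference of -3.08 ± 0.59 (adjusted p = 0.00118) and in Tert HFD by -2.38 ± 0.59 (adjusted p = 0.0194). The diet difference of 2.15 ± 0.67 did not pass (adjusted p = 0.0621), nor did that between Tert and TertCi, 0.70 ± 0.76. The diet difference did pass without mouse rep129 (2.67, adjusted p = 0.000526), rep138 (2.15, adjusted p = 0.00988) or rep140 (2.15, adjusted p = 0.00421), and did not without either mCherry SD mouse (adjusted p = 0.161 and 0.0732). Without mouse rep128, Ccl21a fell below the count filter and none of these tests could be made, so the calls rest on that library. In nuclei chosen by all 5 markers, Ccl21a had a UMI in 78 of 123 nuclei of mouse rep128 and 6 of 17 of mouse rep129. It had one in 7 of 37 nuclei of mCherry SD, 21 of 92 of Tert HFD and 10 of 77 of TertCi HFD. With each nucleus thinned to 1000 UMIs these became 42 of 123, 5 of 17, 6 of 37, 10 of 92 and 6 of 77. In blood endothelial nuclei Ccl21a was at most 4.24 CPM, with a UMI in 11 of 741 nuclei of mouse rep128. The feature list holds near-identical Ccl21 copies between which counting can split reads, so its levels are uncertain.

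Flt4, chosen likewise by the other 4 markers, was at 484 and 635 CPM in mCherry SD, 259 and 287 CPM in mCherry HFD, 548 and 438 CPM in Tert HFD, and 517 and 462 CPM in TertCi HFD. The 2 mCherry HFD mice were lowest and overlapped with no other group. None of the differences passed the adjusted threshold over 2878 genes: the log2 difference was -1.02 ± 0.36 for diet (adjusted p = 0.13), 0.95 ± 0.34 for Tert (adjusted p = 0.13) and 0.83 ± 0.31 for TertCi (adjusted p = 0.134), in edgeR's test. Prox1, Mmrn1 and Reln, tested in the same way, differed by at most 0.78 ± 0.41, the diet difference of Prox1, and none passed.

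Across all genes tested in lymphatic nuclei, 166 of 2891 (5.74%) differed by diet in mCherry mice, 103 higher (3.56%) and 63 lower (2.18%) on the high-fat than on the standard diet (edgeR, adjusted p under 0.05). Against mCherry HFD, 130 genes (4.5%) differed in Tert HFD, 56 higher (1.94%) and 74 lower (2.56%), and 207 genes (7.16%) in TertCi HFD, 78 higher (2.7%) and the others lower (4.46%). These 3 comparisons share the mCherry HFD libraries. DESeq2 called 46, 8 and 60 genes. Without mouse rep128 the numbers were 75, 59 and 80. Diet gave 60 genes without mouse rep146 and 108 without mouse rep134, and TertCi gave 78 fewer without mouse rep134. Tert gave 232, 215 and 243 genes without mouse rep144, rep146 or rep140, and TertCi gave 326 and 322 without mouse rep144 or rep146. The number of genes tested changed with the mouse left out, so these counts have unlike denominators. It was 4336, 4485 and 4528 without mouse rep144, rep146 or rep140, and 2797 and 2119 without mouse rep128 or rep134. Most of the genes called with all 7 libraries differed likewise in free RNA: 163 of the 166 diet genes had the same direction there, 149 of them with at least a 2-fold difference, and the numbers were 124 and 81 of 130 for Tert and 203 and 178 of 207 for TertCi. The level in the higher group reached at least 2 times free RNA for 12, 10 and 10 genes. Markers of lipid-associated macrophages and of adipocytes were among the others. Lgals3, which encodes galectin 3, was higher by 3.79 ± 0.63 with diet, at -2.88 ± 0.50 in Tert HFD and at -3.01 ± 0.45 in TertCi HFD, and Ghr, the growth hormone receptor, was at -2.69 ± 0.43 with diet and 1.61 ± 0.47 and 1.72 ± 0.42 in the other comparisons.

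**Figure D4:**
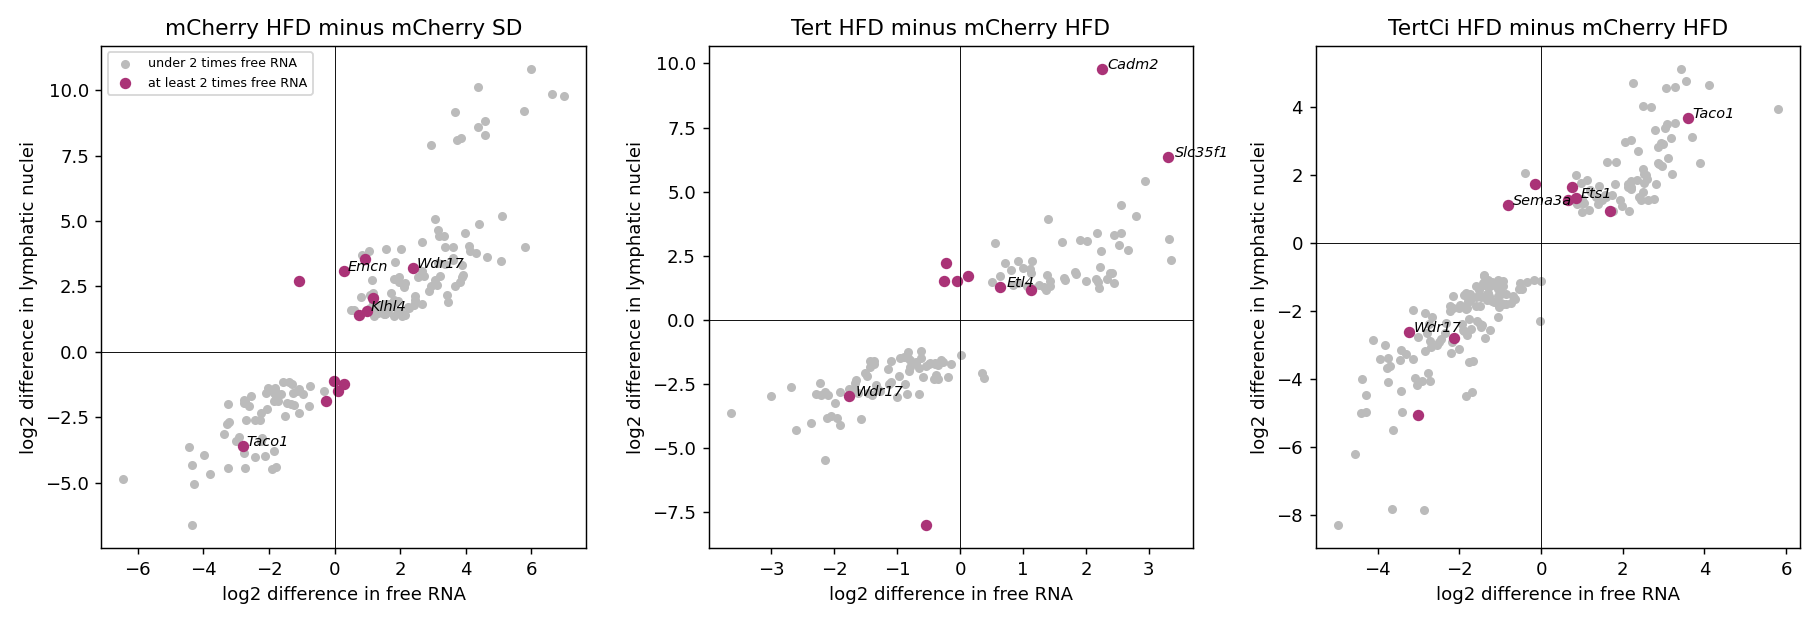
Genes called in each group comparison, with the log2 difference in free RNA (offset of 1 CPM) on the horizontal axis and in lymphatic nuclei on the vertical axis; purple points had at least 2 times their free RNA level in the higher group. Most points lie in the quadrants where both differences have the same sign, 163 of 166 for diet, 124 of 130 for Tert and 203 of 207 for TertCi.

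In the lists of endothelial function the calls were read against the 5.74, 4.5 and 7.16% of all genes called for diet, Tert and TertCi, at which a list of 5 to 16 genes holds about 1 call or none. Of 16 tested lymphatic genes outside the rule, 1 rose with diet (Klhl4) and none fell, none changed with Tert, and 1 rose with TertCi (Sema3a), with medians of 0.18, 0.18 and -0.14. Of the genes of the VEGF-C and TIE pathway 12 were tested and none was called in any comparison, with medians of -0.34, 0.13 and 0.29. Of 15 guidance genes, Plxna4 rose and Slit3 fell with diet, Slit3 rose with Tert, and Slit3 and Sema3a rose with TertCi, with medians of -0.49, 0.28 and 0.48. The differences of Slit3, a guidance ligand, were -1.24 ± 0.33, 1.28 ± 0.36 and 1.497 ± 0.32, beside -1.30, 1.33 and 1.23 in free RNA, and in the higher group its lymphatic level was 0.664, 0.73 and 0.886 times free RNA. None of 9 junction genes, 5 Notch pathway genes or 16 matrix and adhesion genes was called in any of the 3. Of 12 lipid handling genes, Lrp1, Lipa and Cd36 rose with diet, Lipa fell with Tert, and Soat1, Lrp1, Lipa, Cd36 and Lpl fell with TertCi. In mCherry HFD, the higher group, none of Lrp1, Lipa and Cd36 reached 2 times its free RNA level. Lpl was also on the adipocyte and macrophage lists. The part of RNA from other cells in these differences was not tested. Cd36 was at 282 and 641 CPM in mCherry SD and 1537 and 1449 CPM in mCherry HFD, but its free RNA stood at 928 and 1223 CPM and 1922 and 1316 CPM, so that the lymphatic level exceeded free RNA only in mouse rep129. Of 7 tested genes of the immune traffic list, Lgals3 rose with diet, and Lgals3 and Cd44 fell with Tert and with TertCi. Only 1 of 12 cycling genes and 2 of 19 p53 targets and cell cycle inhibitors had counts enough to be tested, and none of these was called.

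Wdr17, which encodes a WD-repeat protein, was called in each of the 3 comparisons with mCherry HFD. It was at 28.2 and 277 CPM in mCherry SD, 1524 and 1777 CPM in mCherry HFD, 225 and 145.8 CPM in Tert HFD, and 354 and 166 CPM in TertCi HFD. Both mCherry HFD mice lay above all others. The log2 difference was 3.21 ± 0.44 for diet (adjusted p = 8.8e-06), -2.95 ± 0.45 for Tert (adjusted p = 9.5e-05) and -2.61 ± 0.36 for TertCi (adjusted p = 8.0e-06), in the edgeR fit, and these calls held in each alternative that gave a value. In mCherry HFD 126 of 140 lymphatic nuclei carried it, and 1 nucleus gave 6.06% of its UMIs. Blood endothelial nuclei of the same mice had 54.1 and 312 CPM, macrophage nuclei 45.5 and 167 CPM, and free RNA 183 and 761 CPM. Wdr17 moved the same way outside lymphatic nuclei. Its mean in free RNA was 472 CPM in mCherry HFD against 88.4 in mCherry SD, 139 in mouse rep134 and 49.3 in TertCi HFD, and in blood endothelial nuclei 183 CPM against 54.98, 38.9 and 30.3 CPM. Mouse rep129 had more Wdr17 than mouse rep128 in free RNA and in each of these classes. The diet difference was larger in lymphatic than in blood endothelial nuclei by 2.10 ± 0.73 on the log2 scale, which did not pass the threshold (adjusted p = 0.545).

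Plxna4, a receptor for class 3 semaphorins, was at 338 and 416 CPM in mCherry SD and 1082 and 970 CPM in mCherry HFD, a log2 difference of 1.43 ± 0.40 (adjusted p = 0.0266). It was at 752 and 583 CPM in Tert HFD and at 1088 and 307 CPM in TertCi HFD, so that the TertCi mice spanned both diet groups. Klhl4, a kelch-like protein, was at 141 and 173 CPM in mCherry SD, 384 and 629 CPM in mCherry HFD, 707 and 145.8 CPM in Tert HFD, and 287 and 461 CPM in TertCi HFD, with a diet difference of 1.57 ± 0.45 (adjusted p = 0.0311). Its free RNA was at most 9.26 CPM and macrophage nuclei had at most 6.33 CPM. The diet call of Klhl4 was lost in 9 alternatives and kept in 6, and that of Plxna4 was lost in 6 and kept in 9. DESeq2 and the removal of either mCherry SD mouse were among the losses of both.

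Emcn (endomucin) and Cyyr1, genes of blood endothelium, also rose with diet in lymphatic nuclei. They were the only ones called of 8 tested blood endothelial genes, whose median difference was 0.57, where 3.56% of all genes were called higher. Rgcc, at -2.69 ± 1.00 (adjusted p = 0.124 with edgeR), and Btnl9, at -0.71 ± 0.75, had differences below 0 that did not pass. Emcn had 0 and 2 UMIs in mCherry SD and 125 and 20 in mCherry HFD, or 0 and 34.6 CPM against 148 and 273 CPM. Cyyr1 was at 56.3 and 17.3 CPM against 194 and 273 CPM. In the 4 mice with Tert or TertCi, Emcn was at 64.0 to 438 CPM and Cyyr1 at 115 to 320 CPM, so that the 2 mCherry SD mice were the lowest of the 8. The standard-diet values rest on 5 UMIs of both genes together, and both calls were lost with DESeq2. In all alternatives together the Emcn call was lost in 6 and kept in 8, and the Cyyr1 call was lost in 4 and kept in 11. Parvb rose likewise, with 0 and 1 UMIs in mCherry SD and 95 and 13 in mCherry HFD, and so did Fam219a, by 2.05 ± 0.61. The call of Parvb was lost in 7 alternatives and kept in 6, and that of Fam219a was lost in 8 and kept in 6, DESeq2 and the removal of either mCherry SD mouse among the losses of both.

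Taco1, which encodes an activator of the translation of a mitochondrial respiratory subunit, was at 1436 and 1057 CPM in mCherry SD, 76.8 and 191 CPM in mCherry HFD, 300.4 and 438 CPM in Tert HFD, and 950 and 1792 CPM in TertCi HFD. The diet difference was -3.60 ± 0.42 (adjusted p = 1.2e-06). Blood endothelial nuclei were lowest in mCherry HFD as well, with 1113 and 727 CPM, 55.5 and 175 CPM, 307 and 2219 CPM, and 801 and 1359 CPM. F13a1, a coagulation factor gene of resident macrophages, was at 1549 and 1143 CPM in mCherry SD and 580 and 287 CPM in mCherry HFD (log2 difference -1.50 ± 0.32, adjusted p = 0.0029), while macrophage nuclei went from 4448 and 4418 to 1383 and 1686 CPM. Bcor, Kcmf1 and Zfhx3 were the remaining named genes that fell with diet, by 1.86, 1.23 and 1.10 on the log2 scale. Their adjusted p was 0.0489, 0.0489 and 0.0416 with edgeR. Most alternatives lost these calls, 12 for Bcor with 3 keeping it, 10 for Kcmf1 with 4 keeping it and 11 for Zfhx3 with 3 keeping it.

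**Figure D5:**
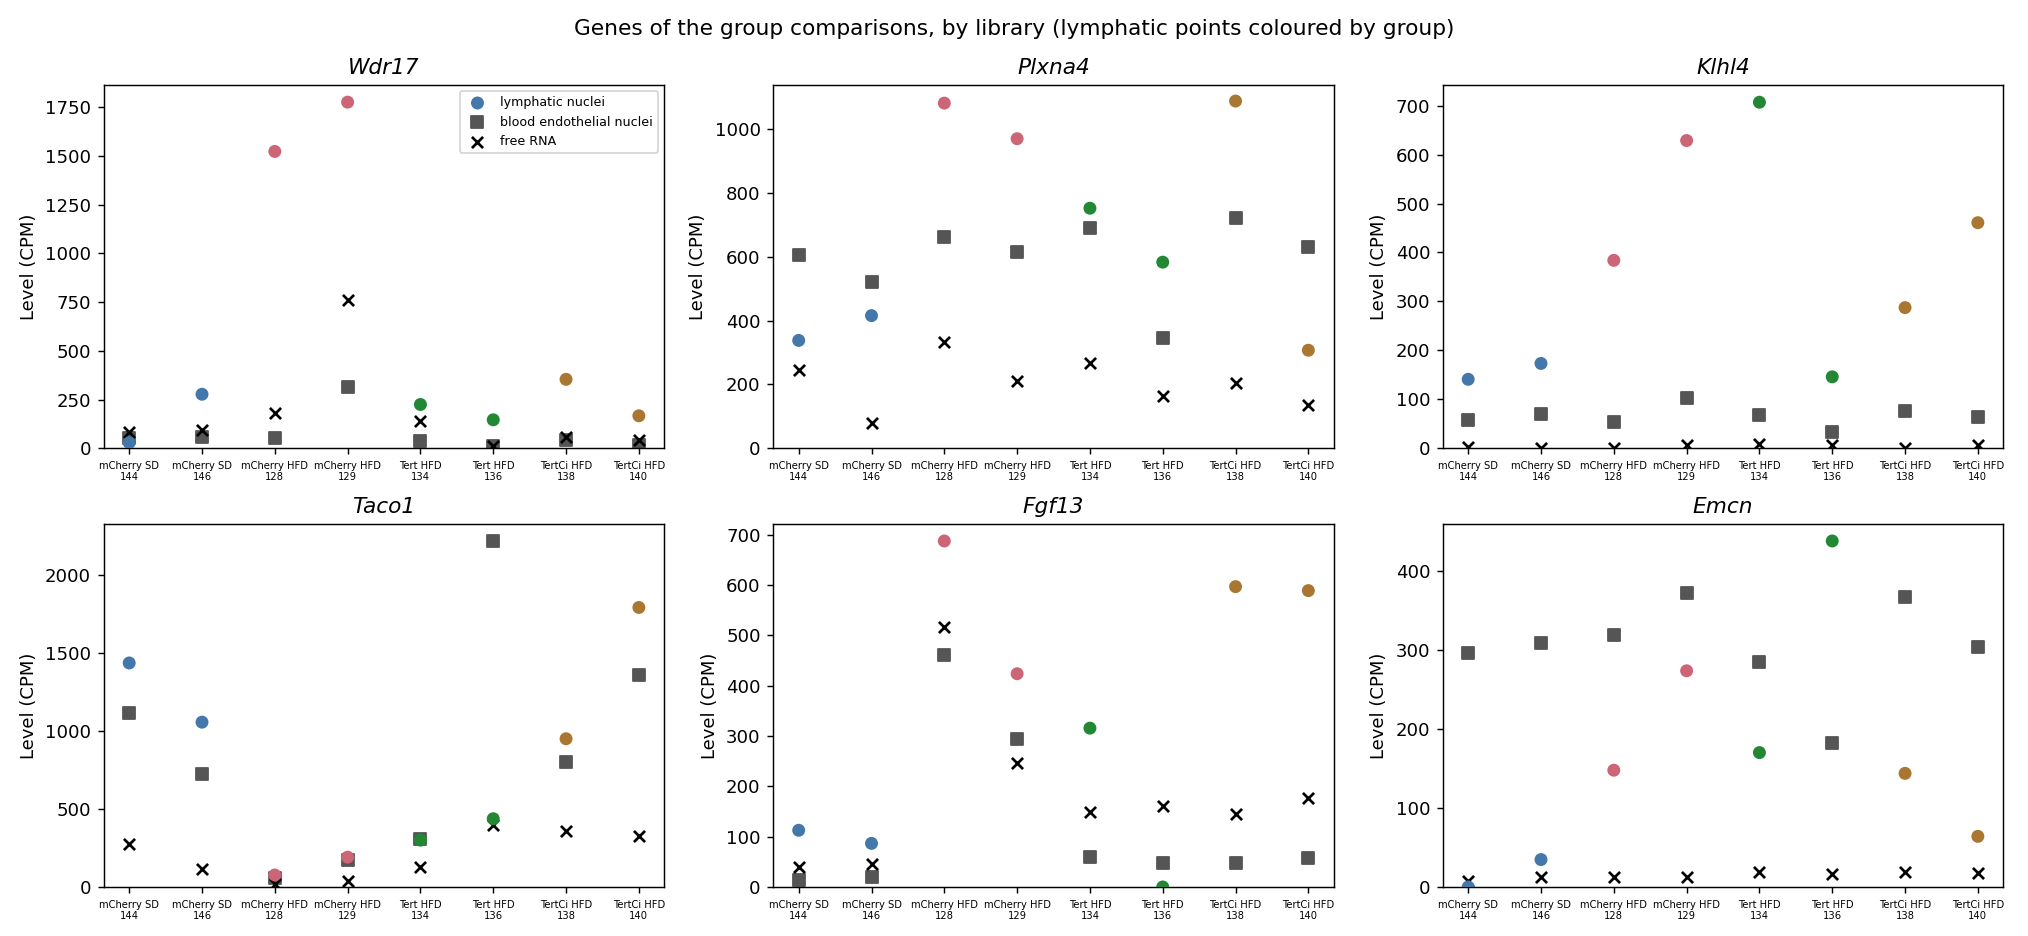
Level of 6 genes in each library, in CPM on a linear axis, in lymphatic nuclei (circles coloured by group), blood endothelial nuclei (grey squares) and free RNA (crosses). Wdr17 is above 1500 CPM only in the 2 mCherry HFD mice, Taco1 is lowest in them at 76.8 and 191 CPM, and Fgf13 stays at 597 and 589 CPM in TertCi HFD where blood endothelial nuclei have 48.0 and 58.0 CPM.

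In Tert HFD, read from mouse rep134, 8 genes called higher than in mCherry HFD had at least 2 times their free RNA level. They were Cadm2, Slc35f1, Cd55, Kcnt2, Plac9, Etl4, Slco3a1 and a gene model without a name. A single nucleus decided the first 2 of these. Of 166 Cadm2 UMIs, 165 came from 1 nucleus of 7121 UMIs, which also held all 46 Slc35f1 UMIs and 87 of 112 Csmd1 UMIs. That nucleus carried 32 of the 33 Cdh19 UMIs of all lymphatic nuclei and 22 of the 46 Scn7a UMIs of its library, both genes of Schwann cells, beside 11 of Reln and 6 of Flt4. Etl4 was at 1459 CPM in mouse rep134 against 485 and 683 CPM in mCherry HFD (log2 difference 1.29 ± 0.33, adjusted p = 0.018), and 1021 CPM in the 3 nuclei of mouse rep136. Cd55, which encodes an inhibitor of complement, was at 319 CPM against 78.0 and 13.7 CPM, with 0 UMIs in mouse rep136, and 1 nucleus gave 51 of its 105 UMIs (48.6%). Kcnt2, a potassium channel gene, was at 428 against 125 and 109 CPM, also with 0 UMIs in mouse rep136. The calls of the named genes other than Cadm2 were lost with DESeq2, and in all alternatives together in 2 (Cd55) to 7 (Slco3a1). The progenitor genes Fbn1 (2.012 ± 0.41, adjusted p = 0.00239) and Opcml (1.74 ± 0.52, adjusted p = 0.0472) were higher in the same edgeR comparison, 2 of 6 progenitor genes tested. Of all genes tested, 1.94% were higher in that comparison. The other progenitor genes tested went both ways, with Lama2 at 0.93 ± 0.41, Celf2 at 0.68 ± 0.36, Dpp4 at -0.91 ± 0.65 and Bmper at -0.71 ± 0.57. The levels of Fbn1 and Opcml were 1.28 and 0.568 times free RNA, and 1 nucleus gave 39.6 and 54.9% of their UMIs. The part of progenitor RNA in the Tert differences was not tested.

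In TertCi HFD, Sema3a was at 591 and 538 CPM against 254 and 246 CPM in mCherry HFD, a log2 difference of 1.13 ± 0.33 (adjusted p = 0.0303). The mCherry SD mice had 310 and 676 CPM and the Tert HFD mice 492 and 292 CPM, the last from 2 UMIs, so that both mCherry HFD mice were the lowest of the 8. Ets1, an endothelial transcription factor, was at 459 and 525 CPM against 240 and 68.3 CPM, by 1.33 ± 0.38 (adjusted p = 0.0263). Thsd7a was at 1249 and 1165 CPM against 708 and 451 CPM. Nxph1, Mylk and Csgalnact1 were higher as well, by 1.74 ± 0.48, 1.64 ± 0.51 and 1.27 ± 0.36, and the difference of Nxph1 was 0.38 without mouse rep138. Only 8 of 77 TertCi HFD nuclei carried Nxph1, and 1 nucleus gave 40 of its 81 UMIs (49.4%). Mylk, a gene of smooth muscle, was at 227 and 192 CPM in TertCi HFD against 68.5 and 54.7 CPM in mCherry HFD, where the 10 mural genes summed to 77.4 and 755 CPM against 135.8 and 164 CPM. The part of mural RNA in this difference was not tested. The calls of Sema3a, Ets1, Thsd7a, Nxph1, Mylk and Csgalnact1 were all lost with DESeq2 and with the highest doublet scores removed. Sema3a and Thsd7a were lost in 10 alternatives each and kept in 6, Ets1 was lost in 9 and kept in 7, Csgalnact1 was lost in 8 and kept in 8, and Nxph1 and Mylk were lost in 7 each and kept in 8.

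Between Tert and TertCi 3 genes (0.104%) were called: Cadm2, from the nucleus above, was higher in Tert HFD (0.0346%), and Taco1 and Mir6236 were lower (0.0692%), the last named after its value was seen. The unadjusted p of 99 genes was under 0.05, and DESeq2 called 0, with 26 genes at an unadjusted p under 0.05. Leaving out 1 mouse at a time gave 6 to 13 genes with edgeR, the most without mouse rep138, so that the number depends on single libraries. The Taco1 call was lost in 5 alternatives and kept in 10, and its Tert side is mouse rep134 alone. By the Taco1 values above, mouse rep136 lay below both TertCi mice in lymphatic nuclei but above both in blood endothelial nuclei. Wdr17 was at 225 CPM in mouse rep134 and at 354 and 166 CPM in TertCi HFD and was not called. Ccl21a and Flt4, above, did not pass either.

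Whether a group difference was larger in lymphatic than in blood endothelial nuclei was tested directly. For diet no gene of 4747 passed (0%) with edgeR, 275 had an unadjusted p under 0.05, and DESeq2 called 0. For Tert 3 genes passed (0.0632%), Slc35f1, Csmd1 and Col14a1. Both Slc35f1 and Csmd1 rest on the nucleus described above, and 1 other nucleus held 81 of the 151 Col14a1 UMIs of mouse rep134. For TertCi 2 genes passed (0.0421%), Fgf13 and Fgf12, which encode intracellular partners of sodium channels. Fgf13 was at 687 and 424 CPM in lymphatic nuclei of mCherry HFD and 597 and 589 CPM in TertCi HFD, while blood endothelial nuclei went from 462 and 295 CPM to 48.0 and 58.0 CPM, a difference of 2.97 ± 0.34 on the log2 scale (adjusted p = 3.0e-05). In mCherry SD lymphatic nuclei had 113 and 86.6 CPM, and the diet difference within them was 2.57 ± 0.46 (adjusted p = 0.000433). Free RNA held 517 and 246 CPM in mCherry HFD against 145 and 177 CPM in TertCi HFD, and macrophage nuclei 732 and 681 against 168 and 208 CPM. In TertCi HFD the lymphatic level was above each of these. Fgf12 was at 165 and 150 CPM against 343 and 282 CPM in lymphatic nuclei and at 18.4 and 0 against 0.786 and 1.21 CPM in blood endothelial nuclei, where few UMIs lie behind the value. With the highest doublet scores removed, edgeR called 0 genes for Tert and for TertCi (133 and 184 at an unadjusted p under 0.05), and DESeq2 on all nuclei called 0 (41 unadjusted) and 1. Leaving out 1 mouse at a time gave 0 to 19 genes for diet, with 6, 18, 19 and 11 without mouse rep128, rep129, rep138 or rep140, and 1 to 10 each for Tert and TertCi, so that these counts depend on single libraries.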

How the data were processed

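The authors deposited raw, whole-number UMI counts for every gene and barcode, with no step that keeps nuclei only. Per the labels' protocols, nuclei of frozen tissue were sorted on DNA dye and processed with droplet 3' chemistry in batches that the labels do not map to mice, so no batch term was fitted. Per the file headers the counts were made with Cell Ranger 7.1.0, whereas the submitters' processing notes name Cell Ranger 5.0.1, bcl2fastq 2.20.0 and mm39. The annotation, and whether introns were counted, are not given in the sources used here.

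UMIs were summed per library and class in Python 3.11.15 (numpy 2.4.6, scipy 1.17.1) and tested in R 4.3.3 with edgeR 4.0.16 (quasi-likelihood, trimmed-mean scaling, low-count filter, adjustment over all genes tested, threshold 0.05) on the 7 libraries with 10 or more lymphatic nuclei. DESeq2 1.42.0 was an alternative. A standard error is the absolute log2 difference divided by the square root of the F statistic, an approximation. Genes of the selection rules stayed in the fits and are not counted. CPM are UMIs per 1000000 UMIs of the class in a library. Whether replicate mice shared a litter is not stated, and p-values measure the spread between mice. Summed over all nuclei of a library, counts of the 2 mice of a group differed beyond counting noise (chi-square per degree of freedom 21.28 to 171.9). Differences in the mix of cell types enter this value, and it was not computed for lymphatic nuclei alone. The rule's members, the gene lists and the tests were chosen with earlier results of these data known. Named genes were members of the lists, or, in each comparison between groups, up to 10 genes per direction with the largest difference among those called, with no overlap between libraries, at least 2 times free RNA and 20 UMIs, and, between classes, up to 15 per direction with one direction in every library and 50 UMIs. Unnamed gene models, mitochondrial and ribosomal genes were not named. 1 list member is included in the counts but is not reported here. No doublets were removed, since the automatic threshold of scrublet marked 0 nuclei in 7 libraries and 15.8% in the other. An alternative removed the highest scores at 0.8% per 1000 nuclei. On simulated counts the diet fit over 2916 genes recovered 4 of 87 genes changed by 1 on the log2 scale and 73 of 92 changed by 2, with 7 false calls. These counts were drawn around 1 common profile with a fixed dispersion of 0.05. They held no differences in free RNA and no single outlying nuclei, so recovery and false calls in the data can be worse.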

Additional observations from a re-analysis of the deposited data

Results flagged for a closer look

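For 5 genes the difference between groups was not the same in lymphatic and in blood endothelial nuclei by the test of that difference. With Tert these were Slc35f1 (6.12 on the log2 scale), Csmd1 (4.05) and Col14a1 (2.91), where 1 nucleus held 90.2%, 26.1% and 34.9% of the gene's UMIs over all lymphatic nuclei. With TertCi they were Fgf12 (4.86) and Fgf13 (2.97), where the highest nucleus held 3.52% and 6.82%.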

How the results depend on the processing

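No paired analysis was possible because the replicate numbers differ between the groups. The labels do not say which mice shared a batch. There were 2 mice per group, 3 lymphatic nuclei in mouse rep136 and a median of 1544 to 3946 UMIs per nucleus. On the simulated counts the diet fit rarely recovered changes of 1 on the log2 scale. Recovery in the other group comparisons was not simulated. Changes of that size can have been missed between groups.

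Counts of called genes are given for diet, Tert, TertCi and Tert against TertCi (166, 130, 207 and 3 genes in the text), for lymphatic against blood endothelial nuclei (1054) and for the differences of differences with diet, Tert and TertCi (0, 3 and 2). A UMI minimum set per library gave 451 genes for Tert, 44 for Tert against TertCi, 542 between classes, and 35 and 6 for the differences with Tert and TertCi, and left too few standard-diet nuclei for diet. Only mice rep128, rep129, rep134 and rep138 then kept 10 lymphatic nuclei, so that Tert against TertCi set 1 library against 1 and the spread came from the mCherry HFD pair. Requiring 3 markers gave 5 for the difference with Tert. Removing the highest doublet scores gave 91, 39, 101 and 1 for the 4 group comparisons and 0 and 0 for the differences with Tert and TertCi (133 and 184 at an unadjusted p under 0.05 with edgeR). DESeq2 gave 46, 8, 60 and 0 (26 unadjusted), and 0 (41 unadjusted) and 1 for those differences. Without a low-count filter there were 7 for Tert against TertCi, 1816 between classes, and 17, 8 and 8 differences. With 20 nuclei required per library there were 84 for diet and 15, 15 and 11 differences, where diet set mouse rep128 against mouse rep146 alone and the spread in lymphatic nuclei came from the TertCi pair. With only the groups compared there were 100 for diet and 462 for Tert. The balance of higher and lower calls, 103 and 63 for diet and 56 and 74 for Tert in the text, turned to 45 and 46 for diet with doublet scores removed and 29 and 55 with 20 nuclei required, the comparison of 1 library with 1. For Tert it turned to 86 and 61 without a low-count filter, 61 and 53 with 20 nuclei required and 228 and 223 with the UMI minimum per library.

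The alternative limited to genes of at least 2 times free RNA, chosen after the data were seen, gave 6, 2 and 3 genes for diet, Tert and TertCi, 236 between classes, and 1 and 1 for the differences with diet and Tert. Leaving out 1 mouse at a time gave 60 (without rep146) to 245 genes for diet, 59 (without rep128) to 243 for Tert, 80 (without rep128) to 326 for TertCi, 6 to 13 for Tert against TertCi, 765 to 1274 between classes, and 0 to 19, 1 to 10 and 1 to 10 for the differences. Mouse rep136 was in none of these fits, and without mouse rep134 no Tert comparison could be made. The low-count filter let 2119 (without rep134) to 4528 (without rep140) genes into the fits between groups, beside 2891 with all 7 libraries. The counts are thus not shares of the same genes. The exact permutation p of the share of nuclei, unadjusted, ranged from 0.0286 (without rep134) to 0.867. That of the share of endothelial nuclei, also unadjusted, ranged from 0.133 to 0.4. Without rep134 the Tert HFD group is mouse rep136 alone, so the 0.0286 is not read as passing the threshold. Chosen without the marker itself, the log2 difference of Prox1 between Tert and TertCi was -0.05 and ranged from -0.22 (without rep138) to 0.090 (without rep140), and that of Reln with Tert was -0.18 and ranged from -0.61 (without rep128) to 0.25 (without rep129). The cause of these differences was not tested. Among the genes named between groups, Wdr17 in 3 comparisons, Taco1 with diet and TertCi and Cadm2 with Tert were called in each alternative that gave a value. For Cadm2 this is no sign of stability. In mouse rep134, 165 of its 166 UMIs came from 1 nucleus, and no alternative was made to leave that nucleus out.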
